A study of Homo sapiens with 4 samples.

Results

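The tubulin isotypes described here are 10 genes picked by name out of the 58735 genes in the deposited files. They comprise 3 alpha-tubulin genes (TUBA1A, TUBA1B and TUBA1C), 6 beta-tubulin genes (TUBB, TUBB2A, TUBB2B, TUBB3, TUBB4B and TUBB6) and the gamma-tubulin gene TUBG1. All 10 were found, each under a single gene identifier. RNA was sequenced from U251 and U87, established human glioblastoma (GBM) cell lines, each as Control cells without Bru and as cells exposed to brusatol (Bru), a compound from Brucea seeds, for 48 h at the IC50 of the line. Each line and condition had 1 library, so 4 libraries were compared and no difference within a line has a replicate check. All 4 libraries came from total RNA of cultured cells and share the same extraction and library kit.

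Microtubules are hollow tubes built from dimers of alpha- and beta-tubulin, and gamma-tubulin sits in the ring complex that starts their growth. The isotypes of alpha- or of beta-tubulin are nearly alike over most of the protein and differ chiefly in the last residues. These form the acidic tail that lies on the outside of the microtubule and carries modifications. In alpha-tubulin the modifications include removal and addition of the terminal tyrosine. Cells also lower the mRNA of alpha- and beta-tubulin when free dimers are in excess, a feedback in which the adaptor TTC5 reads the first residues of the new chain on the ribosome. An antibody against beta-tubulin is among those the study lists for its blots.

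The coding ends of the beta-tubulin genes are shown first because they encode the tails by which isotypes are known. They also show how far short reads can tell the genes apart there. The end of the gamma-tubulin gene TUBG1 is shown only for comparison. Each line gives the last 60 coding bases, stop codon included, from the reference transcript of GENCODE release 29 on GRCh38, 5′ to 3′ on the strand of the gene. Capitals mark bases that lie in a stretch of 25 bases, inside the printed end, found in no transcript of another gene on either strand.
TUBB: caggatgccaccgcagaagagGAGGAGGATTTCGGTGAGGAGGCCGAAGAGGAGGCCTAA
TUBB2A: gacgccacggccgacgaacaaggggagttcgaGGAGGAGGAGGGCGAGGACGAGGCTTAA
TUBB2B: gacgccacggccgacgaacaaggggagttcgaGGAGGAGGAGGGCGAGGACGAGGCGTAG
TUBB3: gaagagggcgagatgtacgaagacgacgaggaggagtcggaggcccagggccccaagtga
TUBB4B: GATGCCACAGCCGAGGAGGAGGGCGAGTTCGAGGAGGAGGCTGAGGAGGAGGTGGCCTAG
TUBB6: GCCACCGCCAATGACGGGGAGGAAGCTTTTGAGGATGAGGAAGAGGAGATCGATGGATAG
TUBG1: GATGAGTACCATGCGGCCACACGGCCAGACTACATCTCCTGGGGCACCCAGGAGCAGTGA
Each of these ends lies in the last exon of its gene. TUBB2A (chr6:3153863-3153922, minus strand) and TUBB2B (chr6:3224751-3224810, minus strand) differed at 2 of 60 bases. The end of TUBB lies at chr6:30724338-30724397, that of TUBB3 at chr16:89935745-89935804, that of TUBB4B at chr9:137243497-137243556, that of TUBB6 at chr18:12326071-12326130 and that of TUBG1 at chr17:42614982-42615041, all on the plus strand. The ends of TUBB4B, TUBB6 and TUBG1 were in capitals over all 60 bases, whereas 0 bases were in capitals in TUBB3. Over its whole reference transcript, TUBB3 shares 89.4% of 50-base stretches with AC092143.1, a readthrough gene at the same place. With any other tubulin gene it shares at most 8.26%. A lack of capitals is thus not a measure of likeness to other isotypes alone.

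The first 24 coding bases are shown for 3 genes, with the first 4 codons in capitals. In the alpha- and beta-tubulin genes these codons encode the residues read in the feedback on tubulin mRNA. The start of TUBG1, a gamma-tubulin gene, is shown only for comparison.
TUBA1A: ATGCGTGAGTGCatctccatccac
TUBB: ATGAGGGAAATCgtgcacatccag
TUBG1: ATGCCGAGGGAAatcatcacccta
All 24 bases of this start were the same in TUBA1A, TUBA1B and TUBA1C. The start of TUBB lies at chr6:30720507-30720530 and that of TUBG1 at chr17:42609738-42609761, both on the plus strand of GRCh38, while the start of TUBA1A is split by an intron.

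Across the whole coding sequence, the 3 alpha-tubulin genes were 96.0% to 97.3% identical to one another. TUBB2A and TUBB2B were 98.1% identical, and the other pairs of beta-tubulin genes were 81.3% to 88.2% identical. Of the stretches of 50 bases in the reference transcript, 87.1% were shared with another gene for TUBA1B, 65.5% for TUBB2A, 52.2% for TUBB2B and 51.8% for TUBA1A, but 0.993% for TUBB6 and 14.6% for TUBB4B. Matches on either strand were counted. TUBA1B shared 68.7% of its stretches with AC011603.2, an antisense gene at the same place, 38.6% with TUBA1A and 37.2% with TUBA1C. TUBB2A shared 60.3% of its stretches with TUBB2B alone. How reads that match several genes were counted is not given in the sources used here, so the levels of TUBA1A, TUBA1B, TUBA1C, TUBB2A and TUBB2B are uncertain to the extent that reads could be split among them or dropped. TUBB6 and TUBB4B are least open to this.

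Overlapping annotation bears on other members. In TUBB3, 89.5% of the reference transcript lies inside exons of AC092143.1, a readthrough gene on the same strand, which was listed with 0, 1, 0 and 0 reads in U251 Control, U251 Bru, U87 Control and U87 Bru. How reads in such shared exons were assigned is not given in the sources used here, and the level of TUBB3 is therefore uncertain. In TUBA1B, 72.6% lies inside exons of the antisense gene AC011603.2, which had 4, 0, 10 and 8 reads, and in TUBB, 20.1% lies inside exons of the antisense gene AL662797.1, which had 40, 36, 11 and 12 reads. Whether strand was used in counting is not stated, and without strand the reads of such a pair cannot be told apart. These shares are of the reference transcript. Over all exon bases of the gene, the length used in the FPKM, the overlap was 35.8% in TUBB3, 36.6% in TUBA1B and 16.0% in TUBB. By that measure it was 20.3% in TUBB6, with AFG3L2 on the other strand. In TUBA1A it was 14.3%, with TUBA1C on the other strand. The plot of shared sequence shows the overlap of the reference transcript and the shared stretches for every member.

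Levels are the FPKM that the authors deposited, in which the fragments of each gene are scaled to gene length and library size. The reads on genes, recovered from these values, totalled between 17083896 and 21453561 per library. The 10 tubulin genes took 113676 and 77556 reads in the Control and Bru libraries of U251 and 75453 and 61265 reads in those of U87, which is 0.530%, 0.435%, 0.413% and 0.359% of the reads on genes. VIM, the intermediate filament gene of glial and mesenchymal cells, was between 606 and 701 FPKM in the 4 libraries, and CD44 was between 94.5 and 125 FPKM. The other neural and glial markers differed between the lines in both directions. SOX2 was at 129 and 91.2 FPKM in U251 but listed at 0 and at 0.0457 FPKM in U87, NES was at 125 and 50.6 FPKM against 1.46 and 0.569 FPKM, and the astrocyte gene GFAP was at or below 2.42 FPKM in all 4 libraries. OLIG2 was at 0.0284 and 0.0644 FPKM in U251 against 0.627 and 1.05 FPKM in U87, and S100B was at 0.296 FPKM in U251 Control and listed at 0 elsewhere. Of 9 markers of leukocytes, endothelium and neurons, 2, 1, 2 and 2 reached 1 FPKM in U251 Control, U251 Bru, U87 Control and U87 Bru, with summed FPKM of 8.30, 5.39, 9.62 and 8.05. Those were the neuronal genes SYT1 and SNAP25, while CD3E was listed at 0 in every library. In such bulk libraries, fewer cells of a type and less RNA per cell cannot be told apart.

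In U251 Control, TUBB, the beta-tubulin gene that most cell types use, had the highest level of the members, at 791 FPKM. It was followed by TUBA1A, an alpha-tubulin gene known for its high level in developing neurons, at 272 FPKM, by TUBB4B, a widely used beta-tubulin gene that is also found in cilia, at 219 FPKM, and by TUBA1B, a widely used alpha-tubulin gene, at 186 FPKM. TUBA1C, the third alpha-tubulin gene, stood at 71.5 FPKM. TUBG1 at 43.5 FPKM, TUBB2A at 40.1 FPKM and TUBB6 at 39.7 FPKM followed, and neighbours among these 3 overlapped in their exact Poisson intervals, which cover counting error only. TUBB2B at 13.3 FPKM and TUBB3 at 1.45 FPKM were the lowest.

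In U87 Control the order differed. TUBB4B at 348 FPKM (95% interval 342 to 354) and TUBB at 337 FPKM (333 to 342) led, followed by TUBA1B at 249 FPKM and TUBB6 at 153 FPKM. TUBA1A at 81.8 FPKM, TUBA1C at 73.4 FPKM and TUBG1 at 53.1 FPKM came next, and the intervals of neighbours among the members did not overlap in this library. TUBB2A at 18.7 FPKM, TUBB3 at 1.22 FPKM and TUBB2B at 0.202 FPKM, the latter resting on 8 reads, were the lowest. The plot of levels gives the 4 values of each member side by side.

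**Figure D1:**
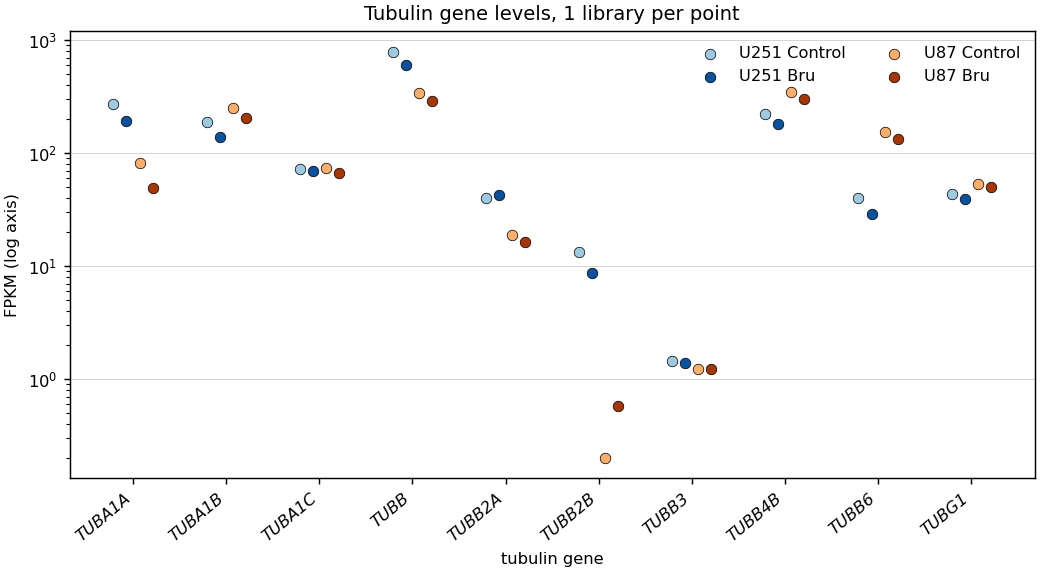
FPKM (y axis, log scale) of the 10 tubulin genes (x axis) in the 4 libraries, 1 point per library. TUBA1A, TUBB, TUBB2A and TUBB2B are higher in both U251 libraries than in both U87 libraries, and TUBA1B, TUBB4B, TUBB6 and TUBG1 are higher in both U87 libraries.

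The Control libraries of the lines were then compared gene by gene. Of the 10 members, 4 were past 2-fold lower in U87 Control than in U251 Control and 1 was past 2-fold higher, against 16.0% and 14.5%, or 30.4% together, of the 12949 genes whose mean reached 1 FPKM. The log2 ratio of U87 to U251, on FPKM + 0.1, was -1.73 for TUBA1A (95% counting interval -1.78 to -1.69), -1.23 for TUBB (-1.25 to -1.21), -1.09 for TUBB2A (-1.24 to -0.96) and -5.47 for TUBB2B. TUBB2B reached the mean of 1 FPKM through U251 alone and so had to differ. The gene on the other side was TUBB6, a beta-tubulin gene whose excess is known to make microtubules less stable, at 1.95 (1.89 to 2.003). TUBB4B at 0.67, TUBA1B at 0.42 and TUBG1 at 0.29 were higher in U87 by less than 2-fold. TUBA1C at 0.04 (-0.01 to 0.09) and TUBB3 at -0.23 (-0.64 to 0.14) differed by no more than counting error, and the sign for TUBA1C turned to -0.03 on the TPM scale.

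Isotype makeup was computed as the share of each gene in the summed FPKM of the listed genes of its class, so that genes of different length can be compared. In U251 Control, TUBA1A made up 51.3% of alpha-tubulin FPKM (95% counting interval 50.8% to 51.8%), TUBA1B 35.2% and TUBA1C 13.5%. In U87 Control, TUBA1B made up 61.6% (61.1% to 62.2%), TUBA1A 20.2% (19.7% to 20.7%) and TUBA1C 18.1%. In the deposited values, the gene in first place thus differed between the lines, with TUBA1A leading in both U251 libraries and TUBA1B in both U87 libraries. The order within a library also depends on how reads were assigned, which the intervals do not cover. Of the reference transcript, 72.6% lies inside exons of another gene for TUBA1B, against 13.0% for TUBA1A. For TUBA1B that gene is the antisense gene AC011603.2, and for TUBA1A it is TUBA1C, on the other strand. Of the 50-base stretches, 87.1% and 51.8% are shared with another gene. The first value is not separate from the 72.6%, since TUBA1B shares 68.7% of its stretches with that antisense gene. With TUBA1A it shares 38.6%, and with TUBA1C 37.2%. The effect of this on the shares was not tested.

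Among the beta-tubulin genes, TUBB made up 71.6% (71.2% to 71.9%) in U251 Control, where TUBB4B made up 19.9%, TUBB2A 3.63%, TUBB6 3.60%, TUBB2B 1.20% and TUBB3 0.132%. In U87 Control, TUBB4B made up 40.6% (40.1% to 41.0%), TUBB 39.3% (38.8% to 39.7%) and TUBB6 17.8% (17.5% to 18.2%), while TUBB2A was at 2.18%, TUBB3 at 0.143% and TUBB2B at 0.0235%. The lead of TUBB4B over TUBB in U87 depends on dividing by gene length, since by share of reads TUBB led there with 44.6% against 28.98%. A single beta-tubulin gene thus supplied most of the class in U251, whereas 3 genes supplied it in U87.

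With Bru, the makeup stayed closer to the Control library of the same line than to the other line. The percentage points of alpha-tubulin FPKM that changed gene came to 3.82 in U251 and 4.85 in U87, against 31.1 between the Control libraries of the lines. For beta-tubulin, 2.48 points changed gene in U251 and 0.505 in U87, against 35.0 between the Control libraries. TUBA1A moved from 51.3% to 48.02% (47.4% to 48.6%) in U251 and from 20.2% to 15.4% (14.9% to 15.9%) in U87, while TUBA1C moved from 13.5% to 17.3% in U251 and from 18.1% to 20.8% in U87. In U87 Bru, TUBA1C stood above TUBA1A by share of FPKM, whereas by share of reads it already did so in U87 Control, with 22.5% against 18.5%. Exons of TUBA1A and TUBA1C overlap on opposite strands, and how reads there were assigned is not given. TUBB moved from 71.6% to 69.5% in U251, and TUBB2A from 3.63% to 4.97%. In U87, TUBB was at 38.8%, TUBB4B at 40.6% and TUBB6 at 18.2% with Bru. The shares of TUBB, TUBB4B and TUBB6 in U87 Bru had intervals that overlapped those of U87 Control. No interval covers variation between cultures, which was not measured.

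**Figure D2:**
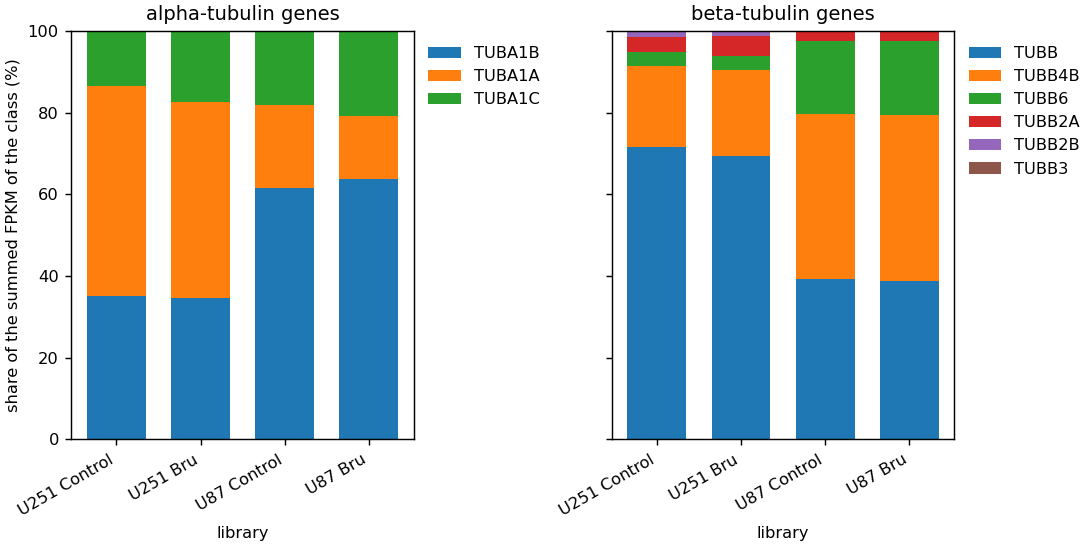
Share of the summed FPKM of the class (y axis, %) for 3 alpha-tubulin genes (left) and 6 beta-tubulin genes (right) in each library (x axis), with 1 colour per gene. TUBA1A takes 51.3% and 48.02% in U251 against 20.2% and 15.4% in U87, and TUBB takes 71.6% and 69.5% in U251 against 39.3% and 38.8% in U87.

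The next comparison asks how the tubulin genes differed between Bru and Control within each line. In U251, 0 of the 10 members were past 2-fold, where 8.80% of the 12949 genes were, 3.36% higher and 5.44% lower. The split over all genes depended on scaling, with 435 genes higher and 705 lower as deposited but 552 and 579 after scaling to the 75th percentile. In U87, 1 member was past 2-fold, TUBB2B, which was higher, where 3.34% of all genes were past 2-fold, 1.92% higher and 1.41% lower. All members but TUBB2B in U87 thus stayed within 2-fold, as did most of all genes. With only 10 members, these counts do not set the members apart from all genes. In U251, 9 of 10 members were below 0 on the log2 scale, against 52.1% of all genes, and 7 of 10 were after scaling to the 75th percentile or to total reads, with or without mitochondrial genes. In U87, 8 of 10 were below 0 under all scalings tried, against 56.7% of all genes as deposited. The counting interval lay wholly below 0 for 7 members in each line, against 35.9% of all genes in U251 and 28.0% in U87. It lay wholly above 0 for 0 members in U251 and 1 in U87, against 30.9% and 15.7% of all genes. Such intervals narrow as reads rise, so these counts also depend on level, and the members and all genes were not matched for it. The median log2 ratio of the members was -0.35 in U251 and -0.20 in U87, and that of all genes was -0.03 and -0.04.

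With the lines taken as replicates of each other, a limma fit of log2(FPKM + 0.1) with the line as a block called 0 of 10 members at an adjusted p under 0.05, and 0.00% of the 12949 genes. At an unadjusted p under 0.05 it held 1 member, against 14.2% of all genes. That member was TUBA1A, with a mean log2 difference of -0.60 (SE 0.18, limma adjusted p = 0.264, lower with Bru in both lines). The adjusted p of the members ranged from 0.264 to 0.970 in this limma fit, which has 1 residual degree of freedom.

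TUBA1A was the alpha-tubulin gene with the largest difference. It was at 272 FPKM in the U251 Control library and 194 FPKM with Bru, and at 81.8 FPKM in U87 Control and 49.5 FPKM in U87 Bru. Both Bru libraries were below their Control, with log2 ratios of -0.49 in U251 (-0.52 to -0.45) and -0.72 in U87 (-0.79 to -0.66). TUBA1B was at 186 and 140.0 FPKM in U251, a log2 ratio of -0.41 (-0.45 to -0.37), and at 249 and 206 FPKM in U87, a log2 ratio of -0.28 (-0.31 to -0.24). TUBA1C differed less, at 71.5 and 70.0 FPKM in U251, with a log2 ratio of -0.03 (-0.08 to 0.02), and at 73.4 and 67.2 FPKM in U87, with a log2 ratio of -0.13 (-0.18 to -0.07). The sign of TUBA1C in U251 turned to 0.05 after scaling to the 75th percentile or to total reads. The counting interval of TUBA1C thus included no change in U251 and lay below 0 in U87.

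TUBB was at 791 FPKM in the U251 Control library and 596 FPKM with Bru, a log2 ratio of -0.41 (-0.43 to -0.39), and at 337 and 286 FPKM in U87, a log2 ratio of -0.24 (-0.27 to -0.21). TUBB4B was at 219 and 180.0 FPKM in U251, a log2 ratio of -0.29 (-0.33 to -0.24), and at 348 and 300.3 FPKM in U87, a log2 ratio of -0.21 (-0.25 to -0.18). TUBB6 was at 39.7 and 29.1 FPKM in U251, a log2 ratio of -0.45 (-0.53 to -0.37), and at 153 and 134 FPKM in U87, a log2 ratio of -0.19 (-0.23 to -0.15). All 3 genes were lower in the Bru library of both lines, under every scaling tried. TUBB4B and TUBB6 are the members whose sequence is least shared, so these values depend least on how reads with several matches were handled.

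The brain-enriched pair TUBB2A and TUBB2B had opposite signs in the lines. TUBB2A was at 40.1 and 42.7 FPKM in U251, a log2 ratio of 0.09 (-0.02 to 0.20), and at 18.7 and 16.3 FPKM in U87, a log2 ratio of -0.20 (-0.38 to -0.02). TUBB2B was at 13.3 and 8.66 FPKM in U251, from 612 and 352 reads, a log2 ratio of -0.61 (-0.81 to -0.43). In U87 it was at 0.202 and 0.576 FPKM, from 8 and 22 reads, a log2 ratio of 1.164 on FPKM + 0.1 and 1.51 without a pseudocount (0.29 to 2.89). TUBB2B was the member with the fewest reads in U87, and its ratio there was 0.39 with a pseudocount of 1. Of the 50-base stretches, 60.3% of those of TUBB2A and 47.3% of those of TUBB2B occur in the other gene of the pair, and TUBB2A had 584 and 490 reads in U87. How reads were divided between the pair was not tested.

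TUBB3 is the beta-tubulin gene of neurons and a common neuronal marker. It was listed low in every library, at 1.45 and 1.38 FPKM in U251 and 1.22 and 1.23 FPKM in U87. This level is uncertain, since 89.5% of the reference transcript lies inside exons of AC092143.1 and the assignment of such reads is not given. The log2 ratios of TUBB3, -0.07 (-0.45 to 0.29) and 0.01 (-0.41 to 0.43), were within counting error. The sign in U251 turned to 0.01 after scaling to total reads. A difference smaller than these intervals was not detectable at 95 to 135 reads. TUBG1, the gamma-tubulin gene that most cells use, was at 43.5 and 39.2 FPKM in U251, a log2 ratio of -0.15 (-0.24 to -0.06), and at 53.1 and 50.5 FPKM in U87, a log2 ratio of -0.07 (-0.16 to 0.01).

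**Figure D3:**
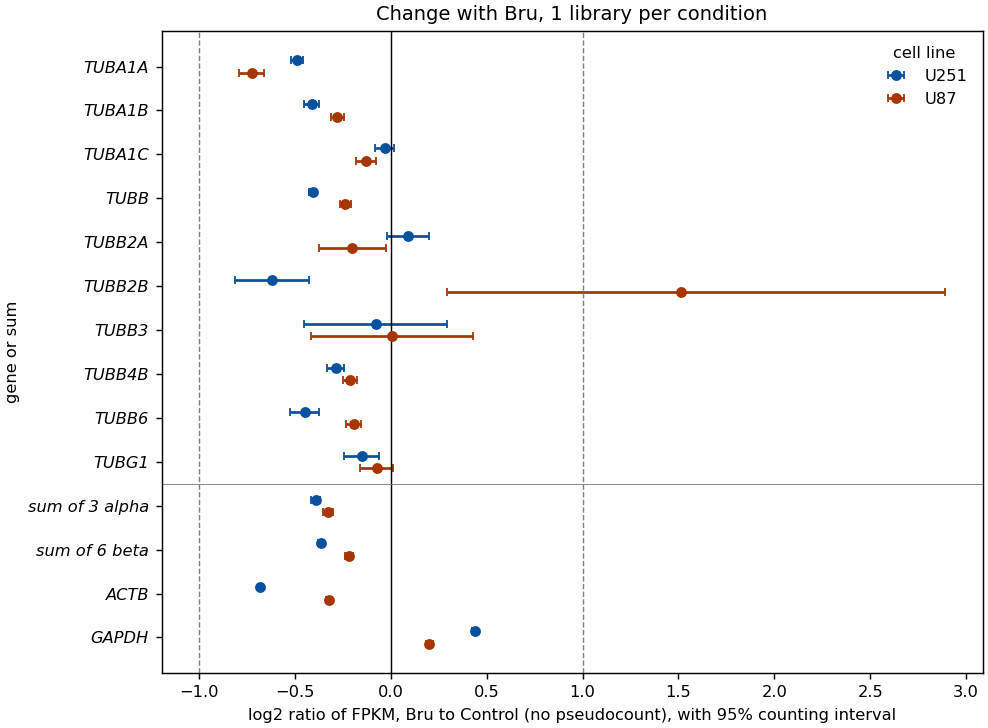
Log2 ratio of FPKM, Bru to Control without a pseudocount (x axis), with the 95% counting interval (bars), for the 10 tubulin genes, the summed alpha- and beta-tubulin genes, ACTB and GAPDH (y axis) in U251 (blue) and U87 (brown). Dashed lines mark 2-fold. TUBA1A, TUBA1B, TUBB, TUBB4B and TUBB6 lie left of 0 in both lines, and only TUBB2B in U87 lies past 2-fold.

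Summed over a class, alpha-tubulin FPKM was 530 in the U251 Control library and 404 with Bru, a log2 ratio of -0.39 (-0.41 to -0.37), and 404 and 322 in U87, a log2 ratio of -0.33 (-0.35 to -0.30). Beta-tubulin FPKM was 1105 and 858 in U251, a log2 ratio of -0.36 (-0.38 to -0.35), and 859 and 739 in U87, a log2 ratio of -0.22 (-0.24 to -0.20). Both classes were lower with Bru in both lines. The ratio of beta- to alpha-tubulin FPKM was 2.09, 2.12, 2.12 and 2.29 in U251 Control, U251 Bru, U87 Control and U87 Bru, and 2.08, 2.12, 1.87 and 1.98 when the other alpha- and beta-tubulin genes were added.

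Beta-tubulin is also set beside ACTB and GAPDH, genes that are often used as references in blots and PCR. ACTB was at 1294 and 808 FPKM in U251, a log2 ratio of -0.68 (-0.69 to -0.66), and at 1124 and 899 FPKM in U87, a log2 ratio of -0.32 (-0.34 to -0.30). GAPDH was at 883 and 1197 FPKM in U251, a log2 ratio of 0.44 (0.42 to 0.45), and at 925 and 1064 FPKM in U87, a log2 ratio of 0.20 (0.18 to 0.22). Summed beta-tubulin relative to ACTB was 0.854 without and 1.06 with Bru in U251, and 0.764 without and 0.822 with Bru in U87. Relative to GAPDH it was 1.25, 0.717, 0.928 and 0.694 in the same order. The direction in which beta-tubulin mRNA differed between Bru and Control was thus higher against ACTB and lower against GAPDH, in both lines. These are mRNA levels, and protein was not measured in these libraries.

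The difference between the lines was computed for each member as the log2 ratio in U251 minus that in U87. TUBA1A was lower with Bru by more in U87, with a difference of 0.24 (0.16 to 0.31). TUBB at -0.17 (-0.21 to -0.14), TUBB6 at -0.26 (-0.34 to -0.17), TUBA1B at -0.13 (-0.19 to -0.08) and TUBB4B at -0.07 (-0.13 to -0.01), which came to -0.027 by total reads, were lower by more in U251. The differences were 0.10 (0.02 to 0.17) for TUBA1C, 0.29 (0.08 to 0.50) for TUBB2A and -1.78 for TUBB2B (-3.52 to -0.89). For TUBB3 at -0.08 (-0.66 to 0.48) and TUBG1 at -0.08 (-0.20 to 0.05) the interval included 0. In size, the difference was 0.29 or less in all members but TUBB2B.

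Of the other tubulin genes, TUBA4A, an alpha-tubulin gene of many adult tissues whose coding sequence lacks the terminal tyrosine codon, was at 0.573 and 0.899 FPKM in U251 and at 53.8 and 50.1 FPKM in U87. Its log2 ratios were 0.57 (0.10 to 1.21) and -0.11 (-0.17 to -0.04). In U87 Control it thus stood close to TUBG1 in FPKM, and it was the only 1 of 7 other alpha-tubulin genes with a mean of at least 1 FPKM. None of 4 other beta-tubulin genes passed that filter. Among them, TUBB4A, a brain beta-tubulin gene, was at 0.839 and 1.14 FPKM in U251, listed at 0 in U87 Control and at 0.0995 FPKM, from 6 reads, in U87 Bru. TUBG2, the second gamma-tubulin gene, was at 11.4 and 14.1 FPKM in U251, a log2 ratio of 0.30 (0.15 to 0.45), and at 9.46 and 7.05 FPKM in U87, a log2 ratio of -0.42 (-0.63 to -0.22). TUBG1 exceeded TUBG2 in all 4 libraries.

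Genes that fold, regulate, modify and bind tubulin were taken from 7 lists with 120 genes, of which 97 had a mean of at least 1 FPKM. In U251, 1 of these was past 2-fold higher and 4 were past 2-fold lower, 5.15% in all against 8.80% of all genes. In U87, 0 were, against 3.34% of all genes. The chaperone list, which holds prefoldin, the CCT ring and the tubulin cofactors, stood at a median of 0.29 on the log2 scale in U251, where 16 of 20 genes were above 0, and of 0.02 in U87, where 11 were. Within it, all 6 prefoldin genes were above 0 in U251 (median 0.73, range 0.09 to 0.77), and all 8 CCT genes were as well (median 0.29, range 0.05 to 0.58). Of the 6 cofactor genes, ARL2 included, 2 were above 0 (median -0.10, range -0.66 to 0.64). In U251 the median of the tubulin genes thus lay below that of all genes, -0.03, and the medians of prefoldin and CCT above it. The median of the cofactor genes lay below it. Over the 12 genes of the gamma-tubulin ring complex and its anchors, the median was -0.26 for U251, with 11 genes below 0, and -0.12 for U87, with 9 below 0. Of all genes, 52.1% were below 0 in U251 and 56.7% in U87.

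The feedback on tubulin mRNA was represented by 6 genes. Among them were TTC5, the adaptor that reads the alpha- and beta-tubulin starts shown above, and genes of the CCR4-NOT complex that removes poly(A) tails. Their median was 0.02 in both lines, and 0 were past 2-fold. TTC5 was at 1.70 and 1.88 FPKM in U251, a log2 ratio of 0.13 (-0.08 to 0.36), and at 1.09 and 0.959 FPKM in U87, a log2 ratio of -0.17 (-0.50 to 0.13). Over the 15 measured enzymes that modify tubulin, the median was -0.18 for U251, with 14 genes below 0, and -0.13 for U87, with 13 below 0. The shares of all genes below 0 were 52.1% and 56.7%. TTL, the ligase that puts back the terminal tyrosine of alpha-tubulin, was at 5.49 and 4.95 FPKM in U251, a log2 ratio of -0.15 (-0.25 to -0.05), and at 11.8 and 10.2 FPKM in U87, a log2 ratio of -0.20 (-0.28 to -0.13).

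The 5 list genes past 2-fold in U251 bind microtubules or free tubulin. Of 21 stabilising and plus-end genes (median -0.18 in U251 and -0.13 in U87), MAP1A, which binds along neuronal microtubules, was at 0.731 and 2.87 FPKM in U251, a log2 ratio of 1.84 (1.72 to 2.23), and at 47.1 and 43.8 FPKM in U87, a log2 ratio of -0.11 (-0.15 to -0.06). MAP2, a dendritic microtubule protein, was at 12.5 and 5.19 FPKM in U251, a log2 ratio of -1.26 (-1.37 to -1.17), and at 2.36 and 1.33 FPKM in U87, a log2 ratio of -0.78 (-1.05 to -0.61). MAP1B was at 53.1 and 56.1 FPKM in U251 and at 61.6 and 54.6 FPKM in U87, with log2 ratios of 0.08 (0.04 to 0.11) and -0.17 (-0.21 to -0.14). MAP1A and MAP2 thus lay on opposite sides in U251.

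Of 10 destabilising and severing genes (median -0.42 in U251 and -0.09 in U87), STMN1 encodes stathmin, which binds free tubulin dimers. It was at 99.1 and 48.7 FPKM in U251, a log2 ratio of -1.02 (-1.07 to -0.98) that was no longer past 2-fold under any other scaling, and at 63.6 and 52.7 FPKM in U87, a log2 ratio of -0.27 (-0.32 to -0.22). Its relative STMN3 was at 17.5 and 4.43 FPKM in U251, a log2 ratio of -1.96 (-2.19 to -1.78), and had only 7 and 10 reads in U87. Of 13 genes of mitotic kinesins and the spindle (median -0.61 in U251 and -0.09 in U87), KIFC1, a minus-end motor that holds spindle poles together, was at 36.4 and 16.4 FPKM in U251, a log2 ratio of -1.15 (-1.26 to -1.05), and at 15.0 and 12.04 FPKM in U87, a log2 ratio of -0.32 (-0.46 to -0.18). In U251, 12 of these 13 genes were below 0, against 52.1% of all genes, and in U87, 9 were, against 56.7%. Whether the genes of these lists and the tubulin genes moved for a shared reason was not tested.

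**Figure D4:**
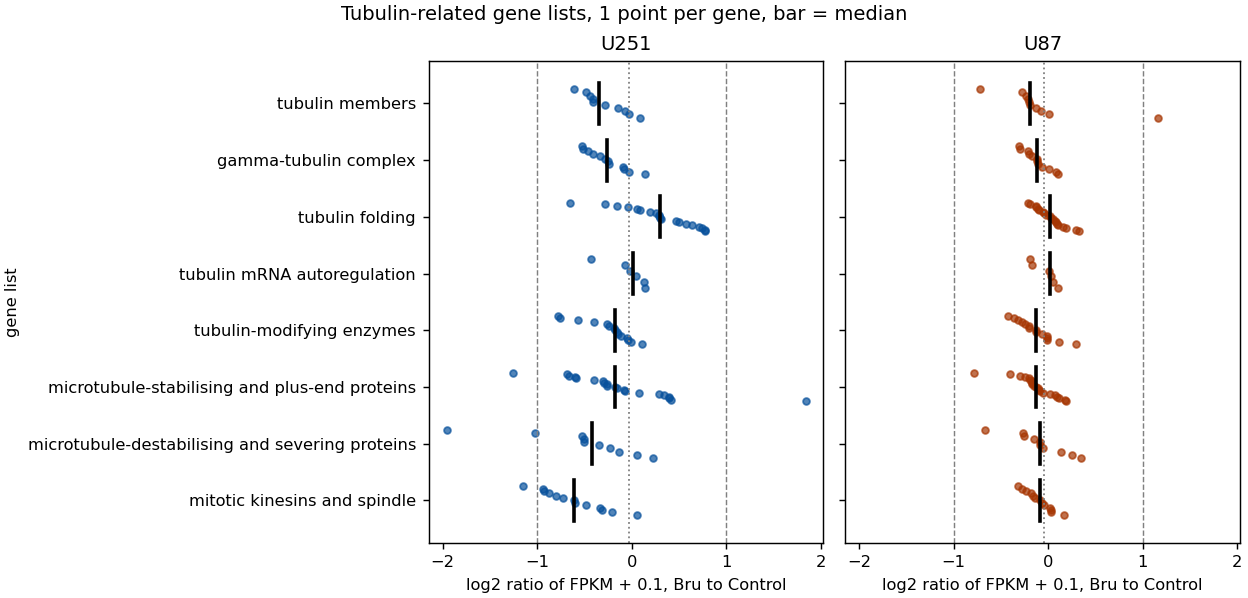
Log2 ratio of FPKM + 0.1, Bru to Control (x axis), in U251 (left) and U87 (right) for the tubulin members and 7 lists of tubulin-related genes (y axis), 1 point per gene with a mean of at least 1 FPKM. Black bars mark list medians, the dotted line the median of all genes and dashed lines 2-fold. The members have medians of -0.35 and -0.20, and the chaperone list 0.29 and 0.02.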

How the data were processed

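Values were the FPKM that the authors deposited, 1 file for each of 4 libraries, made from total RNA with a NEB Next Ultra kit and paired-end Illumina reads. The submitters' processing notes name HISAT2 2.0.5, StringTie 1.3.3b, featureCounts 1.5.0-p3, DESeq2 1.16.1 and hg18, without saying what each was used for. The gene coordinates equal those of GENCODE release 29 on GRCh38 for 58735 of 58735 genes, and this build was used here.

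FPKM times gene length was a whole multiple of 1 step for 100% of values in every library (largest deviation 4.35e-05 reads), which gave the reads per gene and the library size inside the FPKM. The depth puts 3 reads on a gene of 1 kilobase at 0.143 to 0.172 FPKM. Log2 ratios were taken on FPKM + 0.1 for genes with a mean of at least 1 FPKM, and a log2 ratio beyond 1 in size counted as past 2-fold. Ratios and shares of single genes carry exact Clopper-Pearson 95% intervals of the reads. Ratios of summed FPKM carry a 95% interval by normal approximation, from reads weighted by gene length. Differences between lines carry the conditional exact interval of the odds ratio, and levels the exact Poisson interval. Intervals for ratios use no pseudocount. They cover counting error only and compare libraries, not conditions, since a line has 1 library per condition. A limma 3.58.1 fit (R 4.3.3) of log2(FPKM + 0.1) over the 4 libraries, with Benjamini-Hochberg adjustment and the line as a block, was added after seeing the data, with the lines as the only replicates. The scripts ran in Python 3.11.15 with numpy 2.4.6, pandas 2.3.3, scipy 1.17.1, biopython 1.88 and matplotlib 3.10.9. Tested on simulated reads, 199 of 200 genes changed 4-fold were past 2-fold in U251 and 200 of 200 in U87, and 95.5% of 12335 and 95.3% of 12009 intervals held the true ratio.

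The members, the gene lists and the settings were chosen with earlier results of these data known. The text names every member, those list genes past 2-fold in either line (at most 3 per list, by mean change), and TTC5, STMN1, MAP1B, TTL, TUBA4A, TUBB4A, TUBG2, ACTB and GAPDH whatever their values. The prefoldin and CCT groups were split out after their values were seen. Alternatives were 5 other scalings, pseudocounts of 1 and 0.01, no filter or a minimum of 0.1 or 5 FPKM, and for the makeup read shares, all alpha- and beta-tubulin genes, added pseudogenes and reference transcript lengths, the last chosen after seeing the data. The coding ends of the alpha-tubulin genes are not reported here.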

Additional observations from a re-analysis of the deposited data

Results flagged for a closer look

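The log2 ratio of Bru to Control had opposite signs in the lines for 3 members. The difference, U251 minus U87, was 0.29 for TUBB2A (0.08 to 0.50) and -1.78 for TUBB2B (-3.52 to -0.89), whose level in U87 rests on 8 and 22 reads. It was -0.081 for TUBB3 (-0.66 to 0.48), within counting error. With 1 library per condition, none of these differences between the lines was tested beyond counting error.

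Among the other tubulin genes, the signs were opposite for TUBA4A, with a difference of 0.68 (0.20 to 1.32), and for TUBG2, with 0.72 (0.47 to 0.98). Both were higher with Bru in U251 and lower in U87. TUBD1 ran the other way, with -0.35 (-0.94 to 0.21), within counting error. Among the tubulin-binding and regulating genes, the same held for MAP1A, with a difference of 1.94 (1.82 to 2.34), for MAP1B, with 0.25 (0.20 to 0.30), and for TTC5, with 0.30 (-0.06 to 0.71), which was within counting error. STMN3 had the opposite pattern, with a difference of -2.31 (-4.19 to -0.99), and only 7 and 10 reads in U87. The part of the culture, the library or the line in these differences was not tested.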

How the results depend on the processing

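With the line as a replicate block, which pairs the Bru and Control libraries of a line, limma called 0 members and 0 genes (1835 at an unadjusted p under 0.05), and without the block also 0 and 0 (83 unadjusted). No result reversed among the summed ratios, and no member past 2-fold changed sign. The summed ratios of Bru to Control remained below 0 under every setting. For all members, alpha and beta in turn they were -0.34, -0.36 and -0.34 in U251 and -0.20, -0.29 and -0.18 in U87 with the median set to 0, -0.28, -0.30 and -0.28 and -0.19, -0.27 and -0.16 at the 75th percentile, -0.28, -0.30 and -0.28 and -0.20, -0.29 and -0.18 by total reads, and -0.29, -0.31 and -0.29 and -0.20, -0.28 and -0.17 by total reads without mitochondrial genes. By TPM the U251 values were -0.34, -0.36 and -0.34, and with all alpha-tubulin genes the U87 alpha value was -0.30. The count of members past 2-fold in U87 was 0 with a pseudocount of 1 and 1 elsewhere. For the list genes, other tubulin genes included, it went from 0 to 1 in U87 (STMN4, 27 and 67 reads) and from 5 to 6 in U251 (with TUBA3D) with no filter or a minimum of 0.1 FPKM, and to 4 in U251 (without STMN1) under each other scaling.

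The share of TUBA1A in U251 Control, U251 Bru, U87 Control and U87 Bru was 48.3%, 44.6%, 18.5% and 13.9% by reads and 48.3%, 45.5%, 18.1% and 13.7% by reference transcript length, and 17.8% and 13.3% in U87 with all alpha-tubulin genes. That of TUBB was 78.4%, 77.0%, 44.6% and 44.1% by reads, 70.1%, 68.2%, 35.3% and 34.8% by reference transcript length, and 70.8% and 68.8% in U251 with pseudogenes added. Calls over all genes moved most with the filter, from 435 higher and 705 lower in U251 to 2424 and 2539 with none, and from 249 and 183 to 2531 and 1804 in U87, while a pseudocount of 1 gave 197 and 419 in U251 and 113 and 77 in U87. A minimum of 5 FPKM gave 150 and 323 in U251 and 38 and 45 in U87, a minimum of 0.1 FPKM 1782 and 1945 and 1627 and 1174. Of the single-gene values, 83 ratios, 54 shares and 1 difference moved beyond their counting interval, and 309, 58 and 69 did not. Depth limits TUBB2B in U87 and TUBB3, and TUBB3 is also limited by the unknown assignment of reads in exons shared with AC092143.1. Without replicates, no setting measures variation between cultures.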

Other observations

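Reads on the 38 genes annotated as tubulin pseudogenes were few beside those on the members. They came to 382 and 235 in the Control and Bru libraries of U251 and to 118 and 140 in those of U87, which is 0.336%, 0.303%, 0.156% and 0.229% of the reads on the members. TUBB2BP1, which shares 17.5% of the 50-base stretches of TUBB2B, had 16 and 11 reads in U251 and was listed at 0 in both U87 libraries. TUBAP2, which shares 22.3% of the 50-base stretches of TUBA1B, had 15, 7, 10 and 16 reads in U251 Control, U251 Bru, U87 Control and U87 Bru. How reads that match a gene and its pseudogene were assigned was not tested.

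Of the remaining tubulin genes, the centriole genes TUBD1 and TUBE1 passed the filter. TUBD1 was at 2.61 and 2.07 FPKM in U251 and at 1.36 and 1.40 FPKM in U87, and TUBE1 was at 1.61 and 2.73 FPKM in U251 and at 1.43 and 1.79 FPKM in U87. Both were named after their values were seen.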
